A study of Homo sapiens with 2 samples.

Results

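The PRDM1 peaks of human chromosome 11 were examined, 378 of the 9669 peaks in the complete list, together with the end of the long arm that holds none. They were chosen by position. Peaks listed on chromosome 11 were divided at 53.7 Mb, which separates the short from the long arm, at 100 Mb, and at 128342576, where the last peak ends. Positions are 1-based, as the authors deposited them, and are given as GRCh37, a build taken from the peak ends because the sources used here name none. The short arm held 189 peaks, the long arm up to 100 Mb (here the proximal long arm) 149, the long arm from 100 Mb to the last peak (the distal long arm) 40, and the last 6.66 Mb none. Because the last divide is itself a peak end, the length of the peak-free end is a description and was not tested.

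The peaks came from ChIP-seq (chromatin immunoprecipitation followed by sequencing). The cells were U266, a long-established line from a human multiple myeloma, labelled as a plasma cell lymphoma. There was 1 library precipitated with the rabbit monoclonal PRDM1 antibody C14A4 and 1 library of input DNA with no antibody. U266 is 1 line with no second condition, and its growth protocol also mentions another myeloma line, NCI-H929. No expression was measured, so the plasma cell label could not be checked against marker genes. With 1 library of each kind, the intervals below cover counting error only, and p-values describe how peaks are arranged in this 1 list.

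PRDM1 (BLIMP-1) is a repressor that binds DNA through zinc fingers and recruits enzymes which close chromatin. In B cells it shuts down the B-cell programme and the cell cycle, and so drives the change to an antibody-secreting plasma cell. Chromosome 11 carries CCND1, the gene of cyclin D1, which a recurrent myeloma translocation places beside the immunoglobulin heavy chain locus. The end of its long arm carries ETS1 and FLI1, a pair of transcription factor genes of the ETS family. In the RefSeq gene order of GRCh38, a different build, 27 protein-coding genes follow ETS1 on that arm. Which genes lie at the peaks or in the peak-free end was not analysed here, because no annotation or sequence of the peaks' build was used.

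The PRDM1 library held 7854466 tags (sequenced reads, duplicates removed) and the input library 8556458, or 3.17 input tags per 1 kb. The authors' filter kept peaks that held at least 50 tags and had a false discovery rate (FDR) of at most 5%. The FDR is the caller's own, from calling peaks with ChIP and input exchanged. Tag counts, folds and FDR values per peak are the authors'. The input background at a peak, given as a multiple of the genome mean, and the tags over expected, which divide the scaled tags by that background over the width of the peak, were recovered from the deposited score.

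As a whole, chromosome 11 carried strong PRDM1 binding about as often as its length implies. It held 40 filtered peaks, with 38.7 expected from its share of the genome's length, a ratio of 1.03 (95% Poisson interval 0.739 to 1.41). This ratio did not pass an exact two-sided binomial test (adjusted p = 0.92 over 24 chromosomes), which 45.8% of the chromosomes passed. Chromosomes 10 and 12, the closest in length, had ratios of 0.747 (adjusted p = 0.203, exact binomial test) and 0.782 (adjusted p = 0.298, exact binomial test). The filtered peaks made up 10.6% of the 378 (95% Wilson interval 7.87 to 14.1), against 9.17% of the complete list. That share did not differ from the other chromosomes in Fisher's exact test (adjusted p = 0.636), which 16.7% of chromosomes passed. In the complete list the ratio to length was 0.896, just short of the 0.05 threshold (adjusted p = 0.0519, exact binomial test).

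Most of the 378 peaks were weak. Their median was 15 tags, the same as over all chromosomes, and the counts ran from 9 to 188. Of the 378, 187 held at most 14 tags, 82 held 15 to 24, 69 held 25 to 49 and 40 held 50 or more. These bands made up 49.5%, 21.7%, 18.3% and 10.6%, against 49.1%, 24.6%, 17.1% and 9.28% of the complete list. An FDR of at most 5% was reached by 165 peaks (43.7%), against 43.5% of the complete list. The FDR was 0 for 50 peaks (13.2%), against 10.7% of the complete list. Each of the 40 peaks with at least 50 tags also met the FDR limit. The median peak was 724 bp wide and held 5.64 times the expected tags, where the median of the complete list was 5.54. Together the 378 peaks covered 323 kb and held 9509 tags, or 0.121% of the library.

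**Figure D1:**
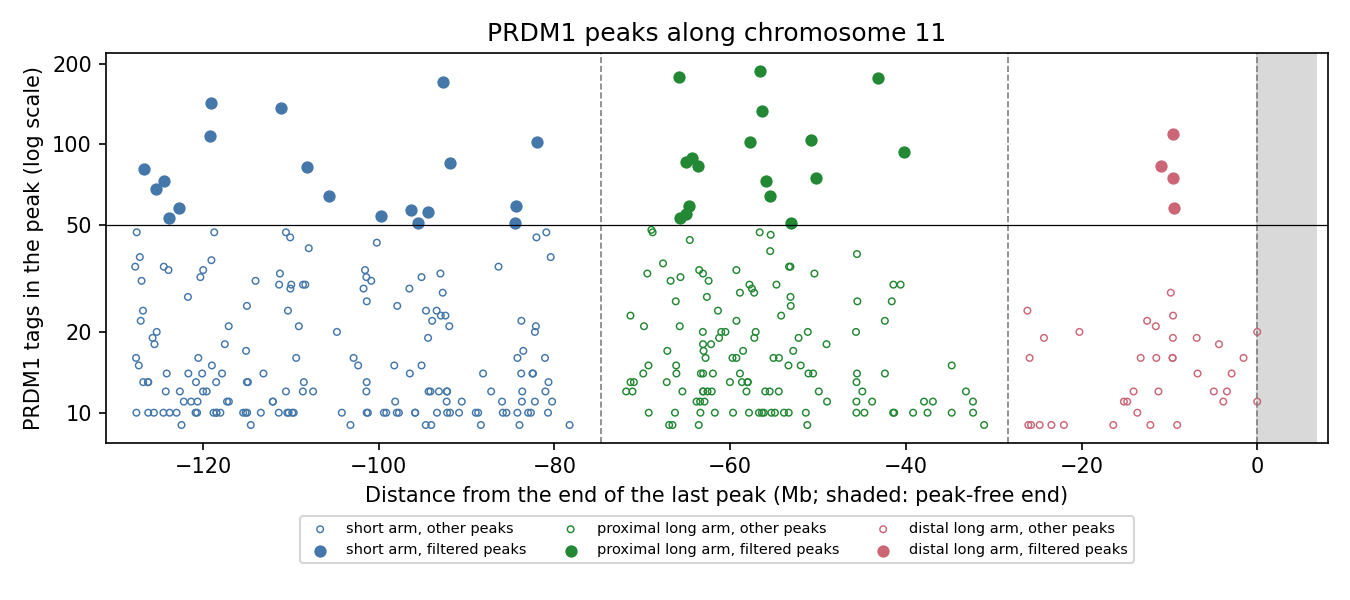
PRDM1 tags in each of the 378 peaks of chromosome 11 (vertical axis, log scale) against the distance from the end of the last peak in Mb (horizontal axis). Filled points are the 40 filtered peaks, open points the others, dashed lines the divides, the horizontal line the minimum of 50 tags, and the shaded strip the 6.66 Mb without a peak; the 4 filtered peaks of the distal long arm sit within 1.54 Mb and no other peak there holds more than 28 tags.

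Among the filtered peaks, the highest score lay on the short arm, from 35683303 to 35685635. This peak held 170 tags where 11 were expected after scaling, 16.8 times (95% Poisson interval 14.4 to 19.5). From 9285048 to 9286675 lay a peak of 142 tags, 23.6 times the expected number (19.9 to 27.9). Another short-arm peak, from 17251285 to 17253164, held 137 tags at 25 times (21 to 29.6). From 9081912 to 9083101 the short arm held another of the 10 highest scores, with 107 tags at 19.5 times. The highest score did not go with the highest ratio. These intervals cover the error of the PRDM1 tags only and take the expected tags as exact. On that basis those of the peaks at 9285048 and 17251285 lay above that of the peak at 35683303. Whether they would with the error of the input added was not tested. The intervals of all other pairs of these 4 peaks overlapped.

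The proximal long arm held the peak with the most enrichment and the peak with the most tags, which were different peaks. The highest ratio of chromosome 11, 33.1 (27 to 40.1), was at 77531344 to 77532421, where 104 tags stood at a fold of 107.29 over the local background at the summit. From 71932996 to 71934884 lay 133 tags at 24 times the expected number (20.1 to 28.4) and a fold of 100.75. The most tags, 188, lay from 71709236 to 71713385. That peak was also the widest of the chromosome at 4150 bp, and its ratio was 6.14. The peak from 62554463 to 62555896 held 178 tags at 13.5 times. Tags and enrichment thus gave different orders.

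One filtered peak of the proximal long arm stood apart by its input. It ran from 85194861 to 85195446, had 176 tags in 586 bp, and was the narrowest filtered peak of the chromosome. Its input background was 12.4 times the genome mean, where the next highest of the 378 peaks was at 4.42 times. It still held 8.3 times the expected tags (7.12 to 9.63). The weakest filtered peak by ratio, 3.97, was at 88137108 to 88139961 with 94 tags. The peak from 2965746 to 2967762, with 68 tags, was the sole filtered peak of chromosome 11 whose FDR was above 0, at 0.09%.

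The limit of 50 tags cut through a continuous range. Just inside lay 3 peaks of 51 tags, from 32797242 to 32798398, from 43890011 to 43891003 and from 75271544 to 75273320. Their ratios were 11, 13.7 and 9.67. Just outside lay 10 peaks of 45 to 48 tags, with ratios from 3.57 to 13.3 and an FDR of 0 to 0.18%. The one of 48 tags, from 59383343 to 59384579, had the highest of these ratios.

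On average, peaks were sparse on the outer long arm from about 80 Mb onward, although the window from 115 to 120 Mb held 16. In the stretches divided at 100 Mb, the short arm had 3.52 peaks per Mb (95% Poisson interval 3.04 to 4.06), the proximal long arm 3.22 (2.72 to 3.78) and the distal long arm 1.41 (1.01 to 1.92), where all chromosomes had 3.12. The intervals of the short and the proximal long arm overlapped, and that of the distal long arm lay below both. The proximal figure joins unlike parts: up to 80 Mb it held 120 peaks, 4.56 per Mb (3.78 to 5.46), and from 80 to 100 Mb 29 peaks, 1.45 per Mb (0.971 to 2.08), much like the distal long arm. The divide at 80 Mb was chosen after seeing the data. Filtered peaks numbered 19, 17 and 4, or 0.354 (0.213 to 0.553), 0.367 (0.214 to 0.588) and 0.141 per Mb (0.0385 to 0.361), and these intervals overlapped. Among these stretches the filtered density was lowest in the distal long arm, on 4 peaks. Between 80 and 100 Mb it was lower still, 0.1 per Mb (0.0121 to 0.361), on 2 peaks. An overlap of intervals does not show that densities were equal. These differences were not tested. The filtered share was much alike, 10.1%, 11.4% and 10%, with a Wilson interval of 3.96 to 23.1 for the last.

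**Figure D2:**
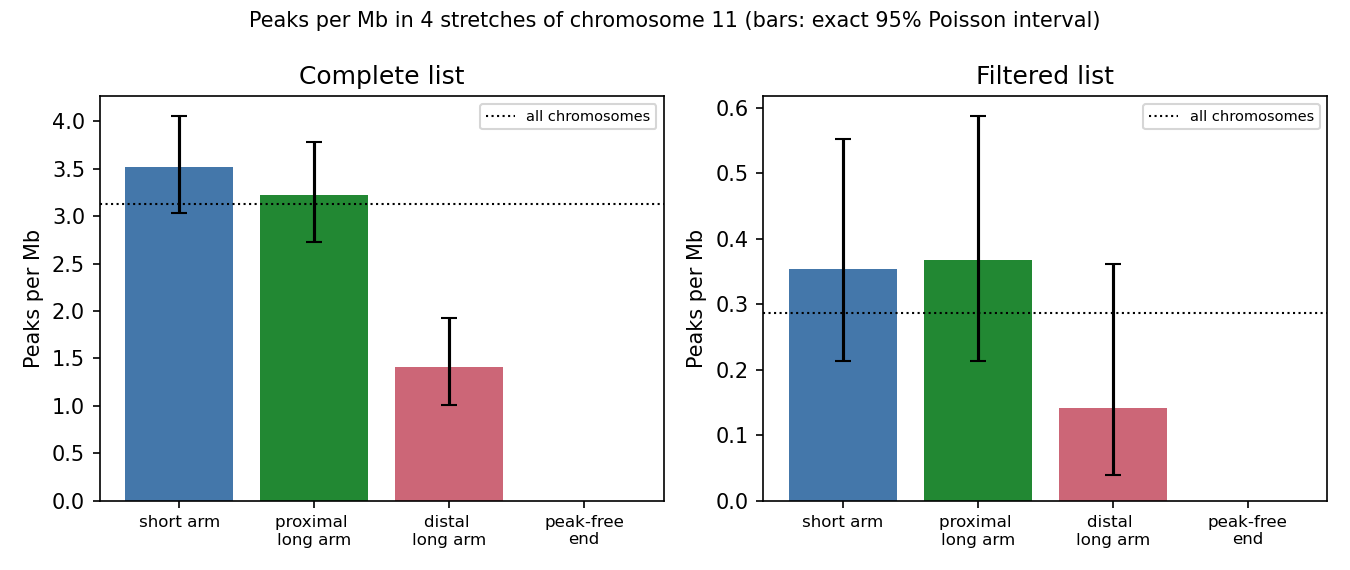
Peaks per Mb (vertical axes) in the 4 stretches of chromosome 11, for the complete list on the left and the filtered list on the right; error bars are exact 95% Poisson intervals, left out for the peak-free end because its count of 0 follows from where the divide was placed, and dotted lines the density over all chromosomes. In the complete list the distal long arm, at 1.41, lies below the short arm, at 3.52, and in the filtered list the intervals overlap.

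The last 35 Mb of chromosomes 10 and 12 give a comparison matched in length only. These held 136 and 174 peaks, or 3.89 (3.26 to 4.6) and 4.97 per Mb (4.26 to 5.77), where the last 35 Mb of chromosome 11, the peak-free end included, held 40, or 1.14 (0.816 to 1.56). The interval of chromosome 11 lay below both. The filtered peaks numbered 10, 16 and 4. The position chose these stretches of chromosome 11, so the difference was not tested.

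Within the distal long arm the strong binding was at 2 places within 1.54 Mb. All 4 filtered peaks lay between 117356408 and 118896166, 1.54 Mb of the 28.3 Mb, and the 9 peaks in it all had an FDR of at most 5% and held 427 of the 856 tags in peaks there. Its strongest peak, from 118742917 to 118744188, held 109 tags, 29.3 times the 4.03 expected (24 to 35.3), the second highest ratio of the chromosome. The others were at 117356408 to 117357600 with 83 tags (23.8 times), at 118711635 to 118712958 with 75 (19.3 times) and at 118894839 to 118896166 with 58 (15 times). The other 31 peaks of the distal long arm held at most 24 tags, with a median of 12, and their density was 1.16 per Mb. Between the filtered peak at 117356408 and the next peak lay 1.15 Mb without any peak, and the other 3 filtered peaks lay together within 191 kb. These places were singled out after their values were seen.

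Weaker peaks lay within 10 kb of 2 of those 4 strong ones. From 118705176 to 118712958, 3 peaks lay within 7.78 kb, with 16, 16 and 75 tags. The peak of 109 tags was followed after 256 bp by one of 19 tags, from 118744445 to 118745090. From 118762780 to 118763711 lay one of 23 tags. These and the peak of 58 tags made 7 peaks, 316 tags in all, within 191 kb.

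The distal long arm had few peaks of middle strength. Peaks of 25 to 49 tags numbered 1 of 40 there, the peak of 28 tags from 118504825 to 118505942, and 68 of 338 (20.1%) on the rest of the chromosome. Over all chromosomes the share of peaks with 25 to 49 tags was 17.1%. In the last 35 Mb of chromosomes 10 and 12 it was 12.5% and 14.9%. Peaks of 15 to 24 tags numbered 16 of 40, against 66 of 338 and 24.6% over all chromosomes. This pattern was noticed in the data and was not tested.

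**Figure D3:**
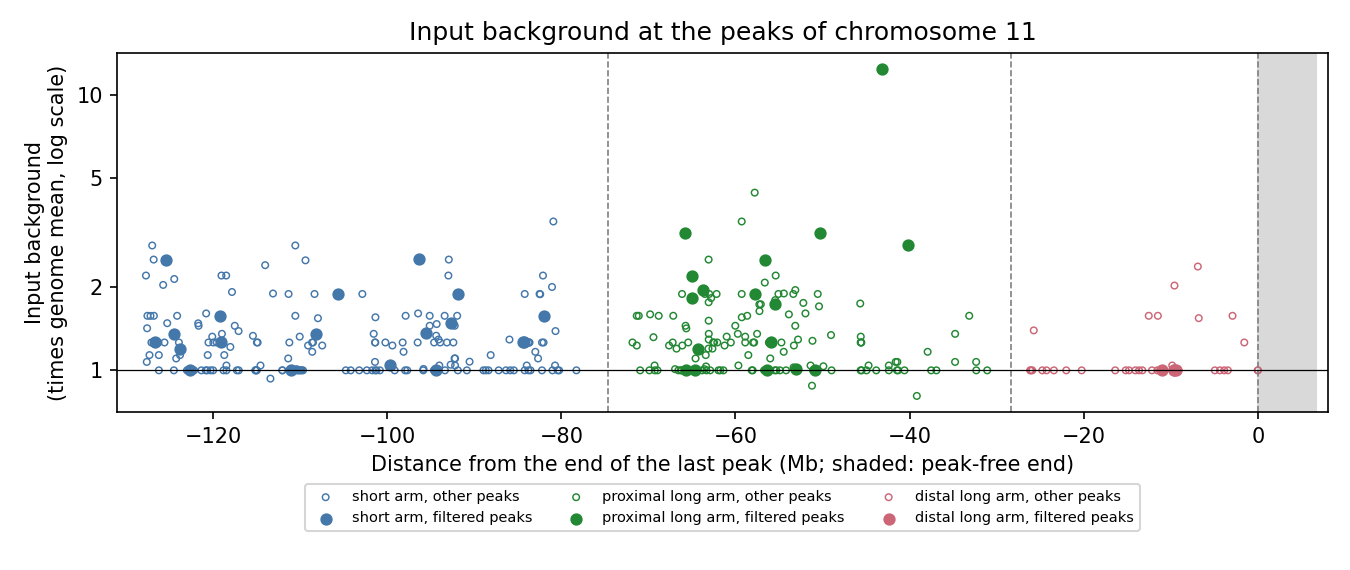
Input background at each of the 378 peaks, in multiples of the genome mean (vertical axis, log scale), against the distance from the end of the last peak in Mb (horizontal axis); filled points are filtered peaks, open points the others. In the distal long arm 31 of 40 peaks lie at the genome mean, the 4 filtered peaks among them.

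Among called peaks, the share with low input was highest beyond 100 Mb, although 106 of the 137 low-input peaks of the chromosome lay elsewhere. The input was recovered at called peaks only. The caller never takes a background below the genome mean, so a peak at that floor has an input at or under the mean around it. In the distal long arm, 31 of the 40 peaks lay within 2% of the genome mean (77.5%, 95% Wilson interval 62.5 to 87.7), 63 of 189 on the short arm (33.3%, 27 to 40.3) and 43 of 149 on the proximal long arm (28.9%, 22.2 to 36.6). From 80 to 100 Mb, where peaks were as sparse, the share was 12 of 29 (41.4%, 25.5 to 59.3), and this interval lay below that of the distal long arm. Over all chromosomes the share was 31.2%, and it was 33.8% and 35.6% in the last 35 Mb of chromosomes 10 and 12. Chromosome 11 as a whole, at 36.2%, ranked 9 of 24, and the X chromosome, at 70.4%, ranked 2. Within the distal long arm the share was 8 of 9 peaks from 100 to 110 Mb, 17 of 21 from 110 to 120 Mb and 6 of 10 beyond.

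All 4 filtered peaks of the distal long arm were at the floor, against 8 of 36 on the rest of the chromosome. Over all chromosomes 134 of 887 filtered peaks (15.1%) were at the floor. The median ratio of tags to expected tags of the 4 was 21.6. It was 12.1 on the short arm, 9.73 on the proximal long arm and 10.4 over all filtered peaks. The tags of the 4, 58 to 109, lay inside the range of the other filtered peaks of chromosome 11, 51 to 188. The median tags were 79, against 68 and 86, the median widths 1298 bp, against 1527 and 1582, and the median backgrounds 1, against 1.36 and 1.83. Over all filtered peaks these medians were 72 tags, 1531 bp and 1.58. What these parts contribute to the higher ratio was not tested, nor was the part of the low input in the number of peaks called. DNA copy number and the share of this stretch that reads could be aligned to were not analysed here.

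The distal long arm closed with a close pair of weak peaks. The last peak, from 128341813 to 128342576, held 20 tags where 2.42 were expected, 8.67 times (5.3 to 13.4), with an FDR of 0.27%. A peak of 11 tags, from 128340508 to 128341101, lay 711 bp before it, at 5.84 times and an FDR of 22.4%. The one before that, from 126784324 to 126784974, held 16 tags with an FDR of 2.07%. These are the values just inside the end. The last filtered peak ended at 118896166, so the chromosome had no filtered peak over its last 16.1 Mb.

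The other divides fell in empty stretches too. Before 53.7 Mb the nearest peak was at 50070944 to 50071466, with 9 tags and an FDR of 48.7%, and after it at 56510084 to 56510684, with 12 tags. Before 100 Mb the nearest was at 97257481 to 97257970, with 9 tags, and after it at 102183265 to 102184132, with 24 tags at 9.45 times the expected number. No peak spans a divide, and small shifts of the divides would move none.

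The first 3 peaks of the chromosome were not far from its start. The stretch before the first peak was 0.629 Mb. That peak, from 628816 to 629868, held 35 tags with an FDR of 0.1%. The next were at 723004 to 723787 with 16 tags and at 761631 to 762074 with 10.

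The 6.66 Mb beyond the last peak were the longest interval of chromosome 11 without a peak. The next longest intervals ran from 50071467 to 56510083 (6.44 Mb, across the divide between the arms), from 97257971 to 102183264 (4.93 Mb), from 108107748 to 111957137 (3.85 Mb) and from 79379323 to 82670844 (3.29 Mb). The 5 longest made up 18.6% of the chromosome's length. The median interval between neighbouring peaks was 165 kb, and 27 of 377 were at least 1 Mb long.

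Among the stretches from the last peak to the chromosome end, that of chromosome 11 ranked 2 of 24, after the Y chromosome. The median of the other chromosomes was 0.308 Mb, and 4 of 24 were at least 1 Mb. Counting also the stretches before the first peak and between peaks, it ranked 16. Assembly gaps, and how much of each stretch reads could be aligned to, were not taken into account. The stretches before the first peak were longer on 6 chromosomes, 13, 14, 15, 21, 22 and X. Of 9645 intervals between neighbouring peaks, 8 were longer, on chromosomes 9, X, 1, Y, 16, 13 and 4. An interval between filtered peaks was longer still on chromosome 11 itself: from 88139962 to 117356407, 29.2 Mb held 30 weaker peaks and no filtered one, rank 6 of 863 such intervals.

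**Figure D4:**
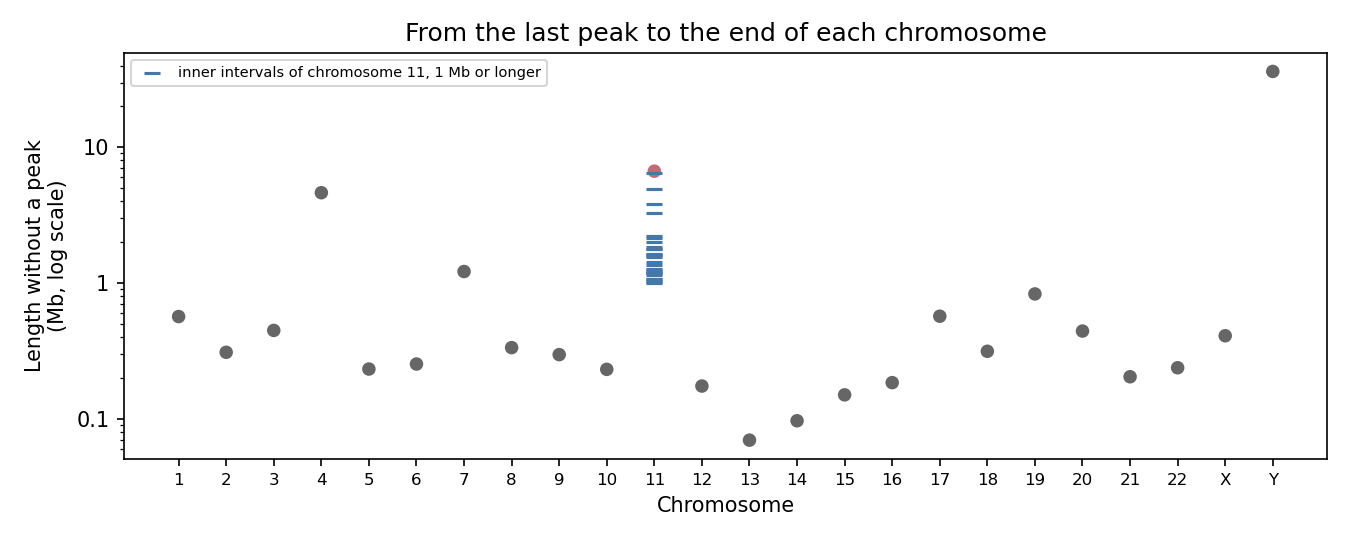
Length without a peak from the last peak to the end of each of 24 chromosomes (points; vertical axis in Mb, log scale), with chromosome 11 in red; blue marks are the intervals of at least 1 Mb between peaks of chromosome 11. The end of chromosome 11 (6.66 Mb) is close to its longest inner interval (6.44 Mb, across the divide between the arms) and far above the median of the other ends (0.308 Mb).

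Windows with many peaks did not always hold filtered ones. In windows of 5 Mb, the densest were 65 to 70 Mb and 70 to 75 Mb, with 31 peaks each, where the median window of chromosome 11 held 16. The first of them held no filtered peak, its strongest peak having 34 tags, and the second held 5, with up to 188 tags. The window from 60 to 65 Mb held the most filtered peaks, 7 of 26. Their median input backgrounds were 1.29, 1.26 and 1.21 times the genome mean. In the genome, 65 windows held 31 or more peaks, and 2 of these, the window from 65 to 70 Mb among them, held no filtered peak. The windows named here were singled out after their values were seen, and nothing was tested on them.

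Some of the peaks formed groups. Of the 378 peaks, 58 (15.3%) had a neighbour within 10 kb, against 16.4% of the complete list. They were 6 of the 40 filtered peaks (15%) and 52 of the 338 others (15.4%). The 58 peaks made 26 groups. The largest, 5 peaks from 65254538 to 65275516, held 12 to 33 tags each and no filtered peak. A group of 3 from 69055732 to 69066566 held 16 to 34 tags, and its middle peak had an input background of 3.47 times the genome mean. The remaining group of 3 on the proximal long arm, from 82719530 to 82732105, held 10 to 13 tags. The group of 3 with 75 tags in its strongest peak, in the distal long arm, was the sole one of these 4 with a filtered peak.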

How the data were processed

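The submitters' processing notes name MACS 1.4, Bowtie 0.12.7 and CASAVA 1.8.2 for the authors' processing. Peaks were called with MACS 1.4.1 on merged alignments, with a p cutoff of 1e-05, per the file headers. The genome build is not given in the sources used here. No peak passed a GRCh37 chromosome end, with lengths typed from general knowledge. The deposited tag count is raw. The deposited score is a multiple of −log10 of the Poisson p-value. The deposited fold is a ratio of summit height to local background, and the authors' FDR is in percent. Peak widths and summits are also as deposited.

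Tags were scaled by 1.09 (input over PRDM1 tags) and rounded down. The expected tags are the Poisson mean at which a count above the scaled tags has the p-value of the score. The recovery fell below 0.98 of the genome mean for 3 of the 378 peaks, which were kept. Poisson intervals are exact and intervals of shares are Wilson's, at 95%. Intervals of tags over expected take the expected tags as exact, so the counting error of the input is left out. The binomial and Fisher tests ran over 24 chromosomes with Benjamini-Hochberg adjustment, in Python 3.11.15 with scipy 1.17.1, and were tested on simulated data. Named regions are the 10 filtered peaks of highest score, the filtered peak with most tags in each stretch, the first and last 3 peaks, the last 3 filtered peaks and the 5 longest intervals. Others were named after their values were seen. The members, stretches and named regions were chosen with earlier results of these data known. Results on genes, start sites and motifs were planned and not run.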

Additional observations from a re-analysis of the deposited data

How the results depend on the processing

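The number of filtered peaks on chromosome 11, 40, stayed 40 with the FDR limit at 1% and was 39 without the peak of high input background. Raising the tag minimum to 100 left 12, and dropping it gave 165, as the limit sets by itself. The ratio to length and the filtered share did not pass their tests under any of their 5 alternatives. Peaks per Mb on the short arm, the proximal and the distal long arm were 1.45, 1.47 and 0.67 at an FDR of at most 5%, and 0.354, 0.367 and 0.141 in the filtered list, which have fewer peaks. Among these stretches the distal long arm was lowest in each. Divided at 80 Mb, the proximal and distal long arm had 4.56 and 1.43 peaks per Mb, and 62.3% of the distal peaks lay at the genome-mean background. The median of tags over expected was 5.64, and 5.29 with tags rounded to the nearest. The peak-free end was 6.66 Mb, the same at an FDR of at most 5%, and 16.1 Mb in the filtered list. The share of short-arm peaks at the genome-mean background was 23.1% at an FDR of at most 5%, and that of the distal long arm 75% to 80% under 3 others. The alternatives on the background, the divide at 80 Mb, on peaks within 10 kb counted once per Mb and on the longest inner interval were chosen after seeing the data. Alternatives on assembly gaps, start sites and motifs could not be run without a genome of the peaks' build. No paired analysis was possible because each kind had 1 library. At 3.17 input tags per 1 kb, weak sites rest on few tags.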
